A study of Mus musculus with 4 samples.

Results

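The 42 genes described here are the transcription factors, receptors, ligands and junction genes that mark endothelial cells or guide the growth of vessels. They were chosen by name and make up 42 of the 21887 protein-coding genes on mouse chromosomes 1 to 19, X and Y. For each gene, every peak was taken whose summit lay inside the gene or within 20 kb of either gene boundary, a stretch called the gene window below. These windows covered 3.91 Mb and did not share a single peak with each other.

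The peaks came from ATAC-seq, which reads out where a transposase can reach the DNA, on hearts of newborn (P0) mice. There were 2 WT libraries and 2 miR-187 libraries, each made from 50000 cells and each with a peak list of its own. The miR-187 mice carry, on a C57BL/6J background, a knockin at the Rosa26 site in which a single copy of mmu-miR-187 is driven by the mouse Tek (Tie2) promoter and a Tek enhancer, which are active in endothelial cells. By the methods of the study, the input was endothelial cells bound to beads against CD31, the protein of Pecam1, whereas the labels name only heart tissue. The study gives the genotypes of its mouse ATAC-seq comparison as +/+ and KI/KI, while the labels name only WT and miR-187. The labels do not give the animals behind a library, so the spread between replicates may be technical.

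The depth of the libraries was unequal. There were 9452 peaks in WT rep 1, 12298 in WT rep 2, 7496 in miR-187 rep 1 and 1483 in miR-187 rep 2. Judged by the local background behind the peaks, depth was 1.70, 5.06, 1.95 and 1 times that of miR-187 rep 2, in the same order of libraries. The miR-187 rep 2 library stands apart by its short list, and group results are given with and without it. The smallest 2-sided p of an exact permutation test with 2 libraries a group is 0.333, which leaves every comparison of the groups short of 0.05.

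Endothelial identity rests on a small circle of transcription factors. ETS proteins such as ERG, FLI1 and ETS1 bind many endothelial enhancers, often beside GATA2, TAL1, LYL1 and LMO2, which form a complex shared with blood progenitors, and SOX7 and SOX17 act in early and arterial endothelium. These factors keep the receptors on the cell surface switched on. KDR and FLT4 bind the VEGF ligands, TEK binds the angiopoietins, EPHB4 on veins pairs with EFNB2 on arteries, and PECAM1, ESAM and CLDN5 join neighbouring endothelial cells.

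Of the 42 members, 26 had a peak in the gene window in WT rep 1, 31 in WT rep 2, 20 in miR-187 rep 1 and 4 in miR-187 rep 2. Among all protein-coding genes the same share was 45.2%, 53.8%, 40.3% and 8.83%. The members' shares were 61.9% (95% Wilson interval 46.8 to 75.0), 73.8% (58.9 to 84.7), 47.6% (33.4 to 62.3) and 9.52% (3.77 to 22.1). The intervals here and below cover counting error only. Both WT shares lay above the share of all genes by more than this interval, and both miR-187 shares lay within it. Members are somewhat longer than other genes, with a median of 21.1 kb against 17.2 kb, and a longer window holds more peaks. In protein-coding genes of like length, within a factor of 1.2 of each member, 20.9, 24.8, 18.7 and 4.10 of 42 genes would have a peak. The members exceeded that number in WT rep 1, WT rep 2 and miR-187 rep 1 and not in miR-187 rep 2, and in each list the share of genes of like length (49.8%, 59.1%, 44.4% and 9.77%) lay inside the interval of the members.

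**Figure D1:**
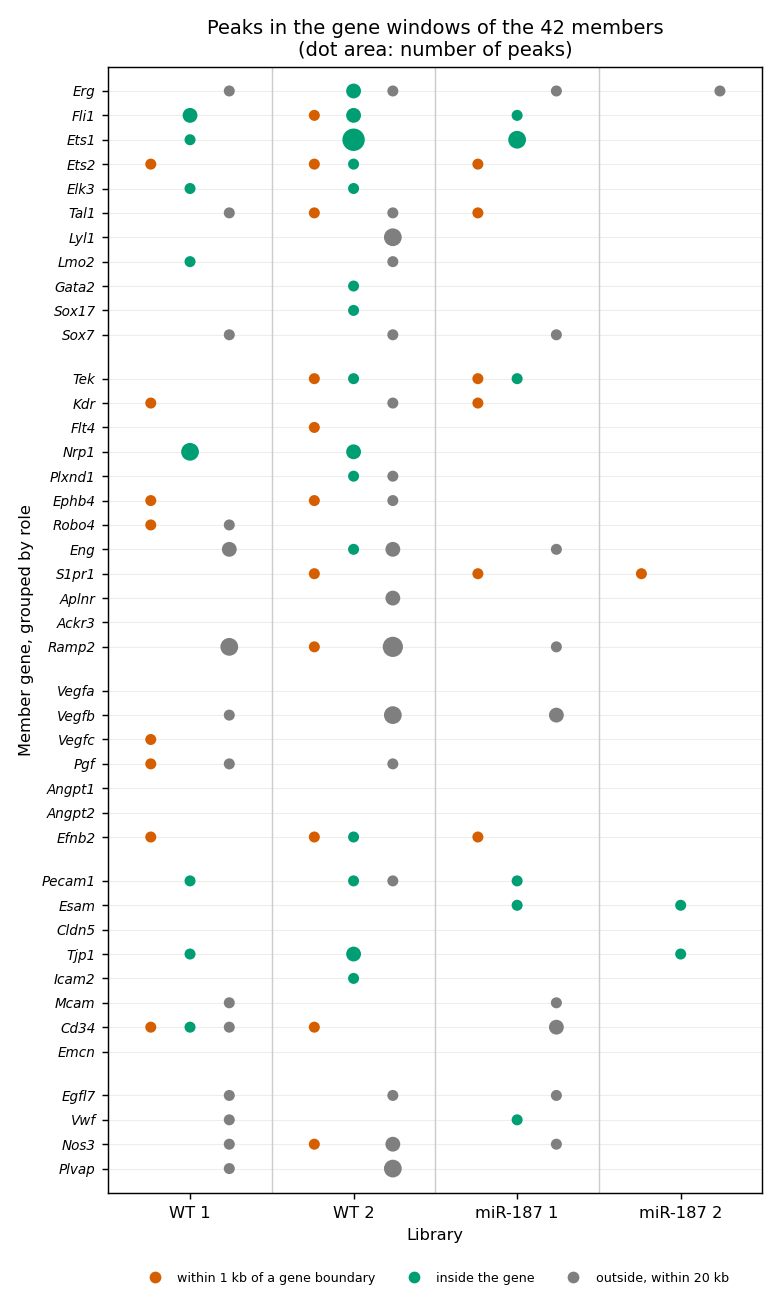
Peaks in the gene window of each member (rows, grouped as transcription factors, receptors, ligands, junction and surface genes, and secreted, enzyme and vesicle genes) in each library (columns). The area of a dot gives the number of peaks and its colour and place their position; WT rep 2 has the most dots, with 31 members, and miR-187 rep 2 has dots at 4 members.

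Only Erg, which encodes the ETS factor that maintains endothelial identity, had a peak in all 4 lists. Another 16 members had one in 3 lists, 10 in 2 lists and 9 in 1 list. In all, 17 of 42 members had a peak in at least 3 lists, against 29.6% of all protein-coding genes, a share not matched for gene length. Ackr3, Vegfa, Angpt1, Angpt2, Cldn5 and Emcn had no peak in any list, as did 35.4% of all genes, and 12.3 genes of like length would be expected without one among 42. The summit nearest to these 6 genes lay 31.1 kb from Vegfa in WT rep 1 and 33.6 kb from Cldn5 in WT rep 2, and farther from the others. The outermost peak counted lay 19.9 kb from Ramp2, at the boundary of Ezh1, and a window of 25 kb would have added no member to any list.

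The window peaks of the members numbered 36 in WT rep 1, 63 in WT rep 2, 25 in miR-187 rep 1 and 4 in miR-187 rep 2, 128 in all. Where peaks of different lists overlapped they were merged, which gave 96 regions. Genes of like length would hold 31.5, 43.5, 26.4 and 4.36 peaks. The members therefore held 1.14 and 1.45 times that number in the WT lists and 0.947 and 0.918 times in the miR-187 lists. No interval was worked out for these ratios, and neither an excess nor a deficit was tested. Without matching for length, members held 1.63, 2.11, 1.38 and 1.23 times the peaks per Mb of all protein-coding gene windows.

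Seen by position, the counts of member peaks inside the gene were above, and those at its boundaries below, the numbers in genes of like length in each of the 4 lists, as a description without a test. Inside the gene, farther than 1 kb from both boundaries, there were 11, 23, 8 and 2 peaks where genes of like length would hold 7.83, 9.51, 5.65 and 1.1. Those peaks fell in 8, 15, 6 and 2 members, and 11.1%, 12.2%, 8.23% and 2.05% of all genes had such a peak. The margin was widest in WT rep 2, where 35.7% of members (23.0 to 50.8) had an intragenic peak against 15.7% of genes of like length, and in the other libraries the share of such genes lay inside the interval. Within 1 kb of a gene boundary there were 8, 11, 6 and 1 peaks in as many members, where genes of like length would hold 10.1, 15, 9.34 and 1.44. Among all genes 21.0%, 29.9%, 19.4% and 3.07% had a boundary peak. Each of these shares, and each share of genes of like length (23.0%, 32.9%, 21.2% and 3.39%), lay within the interval of the members' share. Outside the gene but within 20 kb, 14, 17, 9 and 1 members had a peak, beside 24.7%, 31.3%, 21.3% and 4.03% of all genes. In genes of like length 11.1, 13.9, 9.47 and 1.78 of 42 would have one. A peak outside a member can belong to a neighbour, and 5 of 17, 8 of 29, 3 of 11 and 0 of 1 of them lay within 1 kb of the boundary of another protein-coding gene. Inside another protein-coding gene lay 5, 14, 2 and 0 of these outside peaks, in part the same ones.

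**Figure D2:**
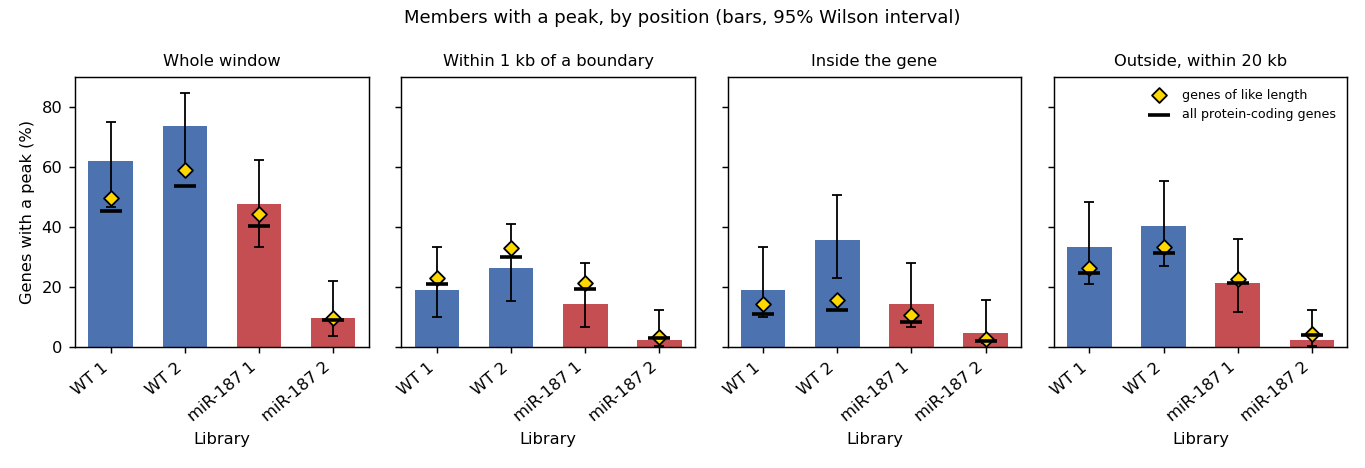
Share of the 42 members with a peak (bars with 95% Wilson intervals; WT in blue, miR-187 in red) by library and position, beside protein-coding genes of like length (diamonds) and all protein-coding genes (lines). Inside the gene the bars stand above the diamonds in each library, and at the boundaries below them.

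Of the 11 transcription factors, 6 had a peak in at least 3 lists, and all 11 had one in WT rep 2. A peak was found for 8 of 11 in WT rep 1, 6 in miR-187 rep 1 and 1 in miR-187 rep 2, or 72.7%, 100%, 54.5% and 9.09% in the order of libraries, beside 45.2%, 53.8%, 40.3% and 8.83% of all genes. Most of their peaks lay away from the gene boundaries, which only Ets2, Fli1 and Tal1 had marked in any list.

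Erg had its peak downstream of the gene, 17.6 kb beyond the boundary and 118 kb from its nearest annotated start, at chr16:95341404-95341850. The fold enrichment at the summit, which the peak caller gives over the local background, was 6.25 in WT rep 1, 9.12 in WT rep 2, 9.29 in miR-187 rep 1 and 4.41 in miR-187 rep 2. Ranked by −log10 q within its own list, this peak stood at percentile 83.6, 99.5, 99.2 and 8.56. It was the strongest peak near any member in WT rep 2 and in miR-187 rep 1, and a weak one in miR-187 rep 2, where it rested on 5 reads. WT rep 2 held 2 further peaks inside Erg, at percentiles 8.33 and 18.3. Only 297 of 20919 regions over the genome had a peak in all 4 lists, and this was 1 of them.

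Ets2, another ETS factor gene, was open at its start in 3 lists. The peak at chr16:95701885-95702585 had a fold enrichment of 7.38 in WT rep 1, 4.58 in WT rep 2 and 6.31 in miR-187 rep 1, at percentiles 97.0, 71.2 and 80.1. No peak was called there in miR-187 rep 2.

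Ets1 and Fli1 lie near each other on chromosome 9 and had several peaks along their length. Ets1 held 7 regions, all inside the gene, with 1 peak in WT rep 1, 5 in WT rep 2, 3 in miR-187 rep 1 and none in miR-187 rep 2. Their folds ran from 3.47 to 5.45, and the highest-ranked of them stood at percentile 52.9 of its list. Of these regions chr9:32695773-32696192 was in both WT lists and chr9:32715977-32716432 in WT rep 2 and miR-187 rep 1. Fli1 held 6 regions, 2 peaks in WT rep 1, 3 in WT rep 2 and 1 in miR-187 rep 1, and none of the 6 recurred in another list. The Fli1 peaks had folds from 3.59 to 5.61 and ranked from percentile 14.4 to 64.1.

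Tal1, the helix-loop-helix factor of the endothelial and blood lineages, had a peak 3.55 kb before its nearest listed start in both WT lists. At chr4:115052711-115053032 its fold was 6.03 in WT rep 1 and 5.14 in WT rep 2, at percentiles 83.6 and 69.5. The miR-187 rep 1 list had instead a peak 489 bp before a listed start, with a fold of 4.82 at percentile 29.8, and WT rep 2 also had a peak at the far end of the gene. Sox7 had a region 12.2 kb from the gene, chr14:63962744-63963044, in WT rep 2 (fold 6.52, percentile 83.2) and in miR-187 rep 1 (fold 7.07, percentile 86.2). WT rep 1 had a weaker peak near Sox7 at another place, 15.4 kb from the gene.

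Elk3, which encodes an ETS-family repressor of angiogenic genes, and Lmo2, whose protein bridges TAL1 and GATA2, had peaks in the WT lists alone, and in both of them. In both genes the peaks of the 2 WT lists lay in different places. For Elk3 the folds were 4.17 in WT rep 1 and 5.77 in WT rep 2, and for Lmo2 5.21 and 4.66. Lyl1, Gata2 and Sox17 had peaks in WT rep 2 alone, with folds from 3.57 to 4.63. For Lyl1 the strongest of 3 peaks lay at the boundary of Trmt1 and the others inside Nfix, both neighbours.

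Among the receptors and co-receptors, 6 of 12 had a peak in WT rep 1, 10 in WT rep 2, 5 in miR-187 rep 1 and 1 in miR-187 rep 2. These are 50%, 83.3%, 41.7% and 8.33%, beside 45.2%, 53.8%, 40.3% and 8.83% of all genes. Tek, the angiopoietin receptor whose promoter drives the transgene, had peaks in WT rep 2 and in miR-187 rep 1. The peak over the promoter, chr4:94739006-94739508, had a fold of 5.18 in WT rep 2 and 5.0 in miR-187 rep 1, at percentiles 63.0 and 35.2. A further peak in the gene, 7.38 kb from the start in WT rep 2 and 7.40 kb in miR-187 rep 1, had folds of 5.04 and 5.60 at percentiles 47.5 and 68.1. Tek was thus open at the same 2 places in 1 library of each group and without a peak in the other library of each. The transgene carries a further copy of Tek promoter and enhancer sequence, so reads from the gene and from the transgene cannot be told apart in the miR-187 libraries.

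S1pr1, the sphingosine-1-phosphate receptor that tightens endothelial barriers, was the member with a boundary peak in both miR-187 lists. The region chr3:115714867-115715347 had a fold of 3.38 in WT rep 2, 4.41 in miR-187 rep 1 and 4.69 in miR-187 rep 2, all at low percentiles of 4.53, 21.0 and 22.0. WT rep 1 had no peak there.

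Kdr, the main VEGF receptor, had no peak at its start in any list. Its peak at chr5:75933554-75933898 lay 44.9 kb from the start and within 1 kb of the other end of the gene, in WT rep 1 (fold 5.95, percentile 70.5) and miR-187 rep 1 (fold 5.0, percentile 23.3). WT rep 2 had only a peak 10.1 kb outside Kdr, at percentile 2.01. Flt4, the receptor for VEGF-C, had likewise its single peak at the end far from the start, in WT rep 2 with a fold of 5.77.

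Ephb4, the venous receptor of EFNB2, had a peak over its start in both WT lists and no peak in the miR-187 lists. At chr5:137349909-137350477 the fold was 5.60 in WT rep 1 and 6.05 in WT rep 2, at percentiles 80.0 and 93.1. Nrp1, a co-receptor of VEGF and semaphorins, also had peaks only in the WT lists, 3 in WT rep 1 and 2 in WT rep 2. These 5 regions were all inside Nrp1 and no region was in both lists, with folds from 4.04 to 6.36.

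Eng, which encodes the co-receptor endoglin of the TGF-β family, had 4 regions in its window. The region 14.7 kb before the start, chr2:32631761-32632235, was in WT rep 2 (fold 6.25, percentile 92.1) and miR-187 rep 1 (fold 4.44, percentile 16.5). Another, 11.6 kb past the far end at chr2:32694037-32694520, was in WT rep 1 (fold 6.78, percentile 93.4) and WT rep 2 (fold 3.66, percentile 4.86). The former lies inside Ak1 and the latter inside Fpgs, both neighbours of Eng.

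Ramp2, a partner of the adrenomedullin receptor, had 7 regions in its window and shared the highest number with Ets1. The gene is only 1.92 kb long, and its 3 peaks in WT rep 1, 5 in WT rep 2 and 1 in miR-187 rep 1 included several at the boundaries of the neighbours Vps25, Wnk4 and Ezh1. A region 15.2 kb away, chr11:101230964-101231285, was in 3 lists, with folds of 6.02, 4.61 and 4.96 in WT rep 1, WT rep 2 and miR-187 rep 1. The peak at the boundary of Ramp2 itself was in WT rep 2 alone (fold 6.03, percentile 89.5).

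Robo4, Plxnd1 and Aplnr had peaks in 1 WT list each and in no miR-187 list. In Robo4, which encodes an endothelial guidance receptor, it stood 10 bp from the start in WT rep 1, with a fold of 5.22.

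Among the ligands, a peak was found for 4 of 7 in WT rep 1, 3 in WT rep 2, 2 in miR-187 rep 1 and 0 in miR-187 rep 2. Over all genes the shares were 45.2%, 53.8%, 40.3% and 8.83%, and among the ligands 57.1%, 42.9%, 28.6% and 0%. Efnb2, the arterial ligand of EPHB4, had a peak over its start in 3 lists. At chr8:8661046-8661562 the fold was 5.0 in WT rep 1, 4.42 in WT rep 2 and 5.76 in miR-187 rep 1, at percentiles 54.3, 53.1 and 78.9.

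Vegfb, a VEGF ligand of cardiac vessels, had the strongest window peak of WT rep 1, but that peak lay at the boundary of Fkbp2. At chr19:6979546-6980242 the fold was 7.69 in WT rep 1, 6.59 in WT rep 2 and 5.81 in miR-187 rep 1, at percentiles 98.4, 99.1 and 76.2. No peak of Vegfb lay within 1 kb of its own boundaries. Pgf, the placenta growth factor gene, had a region 8.24 kb away, chr12:85185842-85186407, in WT rep 1 (fold 5.36) and WT rep 2 (fold 4.76) and in no miR-187 list. WT rep 1 also had a peak 36 bp before a start of Pgf, with a fold of 4.79, and 1 peak near the start of Vegfc, with a fold of 5.15.

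Of the junction and surface genes, 4 of 8 had a peak in each of WT rep 1, WT rep 2 and miR-187 rep 1, and 2 in miR-187 rep 2. That is 50% in the first 3 lists and 25% in the last, where all genes had 45.2%, 53.8%, 40.3% and 8.83%. Pecam1, the gene of the CD31 protein used for capture, had a peak in the gene at chr11:106674622-106674996. Its fold was 5.51 in WT rep 2 and 4.10 in miR-187 rep 1, at percentiles 89.7 and 9.64. WT rep 1 had a peak elsewhere in Pecam1, 1.31 kb from a boundary, with a fold of 3.85 at percentile 4.13, and miR-187 rep 2 had none.

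Esam, an adhesion molecule of endothelial tight junctions, was the single member with a peak in both miR-187 lists and in neither WT list, a pattern found in 0.160% of all genes. The peaks overlapped by 17 bases inside the gene within chr9:37530644-37531310, with a fold of 5.31 in miR-187 rep 1 and 4.73 in miR-187 rep 2, at percentiles 50.4 and 18.1. Their summits lay 389 bp apart, so they no longer counted as shared when summits had to lie within 250 bp. The peak in miR-187 rep 2 rested on 6 reads and that in miR-187 rep 1 on 11.

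Tjp1, which encodes the scaffold protein ZO-1, held the strongest member peak of miR-187 rep 2. At chr7:65382417-65382704, inside the gene, the fold was 5.43 in WT rep 2 and 6.15 in miR-187 rep 2, at percentiles 55.9 and 76.1. The other peaks of Tjp1, 1 in each WT list, were at percentiles of 10.2 and 0.439, the former 39 bp from a listed start. Cd34, a sialomucin of endothelial and progenitor cells, was open at its start in both WT lists, at chr1:194938782-194939045, with folds of 4.88 and 5.56. A region 15.1 kb past the far end of Cd34 in miR-187 rep 1 (fold 7.22) was also in WT rep 1 (fold 5.68), so the gene as a whole had peaks in 3 lists. Icam2 had a peak in WT rep 2 and Mcam had peaks in WT rep 1 and miR-187 rep 1, about 4.05 and 4.53 kb from the gene.

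The 4 genes for secreted, enzyme and vesicle proteins had peaks mostly outside the gene. Nos3, which encodes the endothelial nitric oxide synthase, had a region in 3 lists, chr5:24393364-24393754, that lay at the boundary of Abcb8. Its folds were 4.35, 5.03 and 5.73 in WT rep 1, WT rep 2 and miR-187 rep 1. Egfl7, a secreted factor of new vessels, had 1 weak peak in each of the same 3 lists, no 2 of them at the same place, at percentiles of 5.02, 23.4 and 23.3. Its peaks in the WT lists lay inside Agpat2, a neighbour. Plvap, the diaphragm protein of fenestrated endothelium, had a region 17.1 kb away, chr8:71528717-71529046, in WT rep 1 (fold 6.59) and WT rep 2 (fold 5.20) and no peak with miR-187. Vwf had a peak inside the gene in miR-187 rep 1 (fold 6.82, percentile 88.0) and one 12.0 kb outside in WT rep 1.

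**Figure D3:**
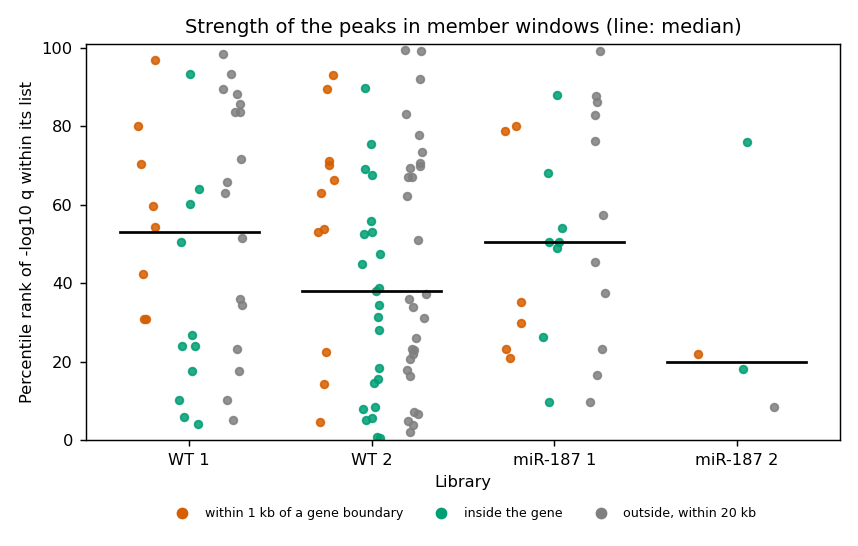
Percentile rank of each window peak within its own list by −log10 q (each point is 1 peak; colour gives position; horizontal line, median). The peaks spread from the weakest to the strongest in WT rep 1 and 2 and in miR-187 rep 1, with medians of 53.0, 38.1 and 50.4, and the 4 peaks of miR-187 rep 2 have a median of 20.0.

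The members' peaks were of middling rank in 3 lists and of low rank in miR-187 rep 2. Their median percentile was 53.0 in WT rep 1 (36 peaks), 38.1 in WT rep 2 (63), 50.4 in miR-187 rep 1 (25) and 20.0 in miR-187 rep 2 (4), where 50 is the middle of a list. Above percentile 90 of their list were 4, 4, 1 and 0 of them. The median number of reads at the summit was 9, 14, 11 and 6.5, as worked out from the fold and the p-value, so most of these peaks rest on few reads.

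For 26 of the 42 members RefSeq promoters of build GRCm38.p6 were at hand, 34 in all because some genes have several starts. Each spans 250 bases before to 50 after the start. A peak overlapped 7 of the 34 in WT rep 1, 5 in WT rep 2, 3 in miR-187 rep 1 and 0 in miR-187 rep 2. Of 21263 promoters of protein-coding genes, 15.7%, 25.3%, 15.8% and 2.03% were overlapped in the same lists. Promoters overlapped in at least 1 list were those of Ets2, Efnb2, Ephb4, Cd34, Tek, Pgf, Robo4 and Tjp1. The 5 overlapped in at least 2 lists are shown because the recurrent start peaks of the members lie on them. They are read 5′ to 3′ on the strand of the gene, at chr16:95702157-95702456 (plus) for Ets2, chr8:8661193-8661492 (minus) for Efnb2, chr5:137349859-137350158 (plus) for Ephb4, chr1:194938571-194938870 (plus) for Cd34 and chr4:94739039-94739338 (plus) for Tek. Capitals mark the motif strings described below them, on either strand.
Ets2: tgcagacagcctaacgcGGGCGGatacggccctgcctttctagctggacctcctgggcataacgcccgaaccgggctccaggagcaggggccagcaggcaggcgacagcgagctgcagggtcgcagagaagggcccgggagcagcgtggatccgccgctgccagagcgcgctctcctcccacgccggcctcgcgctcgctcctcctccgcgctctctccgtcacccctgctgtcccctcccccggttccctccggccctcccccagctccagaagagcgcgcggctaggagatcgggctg
Efnb2: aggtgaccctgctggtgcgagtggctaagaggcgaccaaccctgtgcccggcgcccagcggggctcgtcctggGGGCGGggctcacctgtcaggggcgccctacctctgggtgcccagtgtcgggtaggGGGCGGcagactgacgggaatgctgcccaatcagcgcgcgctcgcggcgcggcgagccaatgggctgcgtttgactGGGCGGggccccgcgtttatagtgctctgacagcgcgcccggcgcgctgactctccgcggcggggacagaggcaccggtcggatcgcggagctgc
Ephb4: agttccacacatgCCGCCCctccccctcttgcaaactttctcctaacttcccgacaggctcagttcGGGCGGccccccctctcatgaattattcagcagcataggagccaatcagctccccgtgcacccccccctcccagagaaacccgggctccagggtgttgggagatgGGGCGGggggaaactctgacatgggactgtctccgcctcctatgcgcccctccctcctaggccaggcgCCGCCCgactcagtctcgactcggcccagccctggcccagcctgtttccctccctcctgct
Cd34: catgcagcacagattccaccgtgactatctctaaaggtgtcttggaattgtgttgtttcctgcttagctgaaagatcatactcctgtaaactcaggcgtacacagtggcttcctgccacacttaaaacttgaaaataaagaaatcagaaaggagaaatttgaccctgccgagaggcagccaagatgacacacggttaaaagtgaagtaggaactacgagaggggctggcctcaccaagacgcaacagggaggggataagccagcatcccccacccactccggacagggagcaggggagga
Tek: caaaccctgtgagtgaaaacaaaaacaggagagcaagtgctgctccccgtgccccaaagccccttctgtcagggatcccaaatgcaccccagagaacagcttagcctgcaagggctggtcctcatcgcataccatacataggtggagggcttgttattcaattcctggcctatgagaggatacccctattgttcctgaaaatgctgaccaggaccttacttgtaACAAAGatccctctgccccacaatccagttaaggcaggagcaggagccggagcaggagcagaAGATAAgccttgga

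Ets2 and Efnb2, whose promoters were overlapped in 3 lists, were rich in G and C (71.7% and 72.3%) and held 30 and 35 CpG dinucleotides. Ephb4 and Cd34, overlapped in both WT lists alone, had 64.7% and 50% G and C with 14 and 7 CpG. Tek, overlapped in WT rep 2 and miR-187 rep 1, had 52% and 3 CpG. The median of the 34 member promoters was 63.7% G and C with 15 CpG, and that of all promoters 56.3% with 13 CpG.

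The strings searched were CCGGAAGT and AGGAAGTN for ETS factors, AGATAA for GATA factors, ACAATG and ACAAAG for SOX factors, TGANTCA for AP-1, TGTTTAC for FOX factors, GGGCGG for the GC box and CAGCTG for the E-box. Both strands were read, and TGANTCA and CAGCTG, which read alike on both strands, were counted once. No 2 of these motif strings contain each other. The GC box stood in 22 of 34 member promoters (64.7%) and in 46.2% of all promoters, and 3 copies were in Efnb2, 4 in Ephb4 and 1 in Ets2. The Tek promoter held ACAAAG with its first base 26 bases before the start and AGATAA at base 37 after it. AGATAA was in 4 member promoters (11.8%) and in 9.65% of all, and either SOX string in 4 (11.8%) and in 25.7% of all. Either ETS string was in 3 member promoters (8.82%), those of Egfl7 and Eng, and in 13.7% of all promoters. None of the 34 held TGANTCA or TGTTTAC, which 6.99% and 3.01% of all promoters did, and CAGCTG was in 4 (11.8%) against 15.6%. A match is a description of the letters and no evidence of binding.

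The question for the groups is whether the members lost open chromatin with miR-187. Members with a window peak averaged 28.5 ± 3.54 in WT (SD, n = 2) and 12 ± 11.3 with miR-187 (SD, n = 2), a difference of -16.5 (exact permutation p = 0.333). Fewer cells with an open site and less cutting per cell cannot be told apart in libraries of pooled cells. The miR-187 libraries, with 20 and 4, both lay below the WT libraries, with 26 and 31, and were almost as far from each other as the group means. In genes of like length the expected number averaged 22.9 of 42 in WT and 11.4 with miR-187, a difference of -11.5. Without miR-187 rep 2 the difference was -8.5 in the members and -4.23 in genes of like length. For members with a boundary peak the means were 9.5 ± 2.12 and 3.5 ± 3.54, a difference of -6 (exact permutation p = 0.333) and of -3.5 without miR-187 rep 2, beside -6.55 and -2.80 in genes of like length. The peaks in member windows averaged 49.5 ± 19.1 and 14.5 ± 14.8, a difference of -35 (exact permutation p = 0.333) and of -24.5 without that library, beside -22.1 and -11.1 in genes of like length. Whether the members differ from genes of like length in this was not tested.

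These counts moved with the length and depth of the lists. When the 1483 strongest peaks of every list were taken, 7, 6, 4 and 4 members had a peak, in the order WT rep 1, WT rep 2, miR-187 rep 1 and miR-187 rep 2, and the difference shrank to -2.5. When each list was thinned to the background density of miR-187 rep 2, the expected numbers were 17.4, 9.03, 12.5 and 4, a difference of -4.96, and the groups overlapped. Under thinning WT rep 2, the deepest library, had fewer members with a peak than miR-187 rep 1. With a −log10 q of at least 5, 10, 20, 7 and 0 members had a peak, a difference of -11.5. A fixed q does not make the libraries equal in depth. How far depth accounts for the difference between the groups was not tested.

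**Figure D4:**
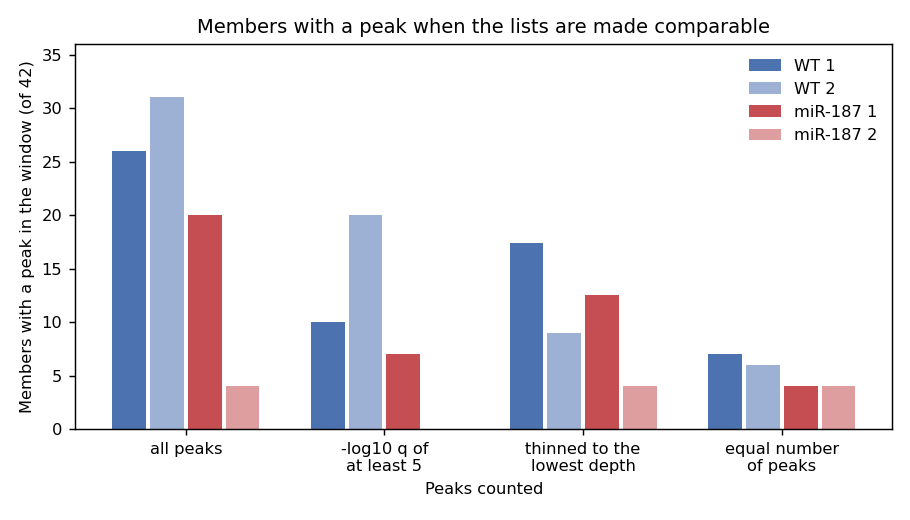
Number of the 42 members with a window peak in each library (WT in blue, miR-187 in red; rep 2 paler) for all peaks, for those with −log10 q at or above 5, after thinning to the lowest inferred background density (expected number) and for an equal number of peaks per list. With all peaks the numbers are 26, 31, 20 and 4, and with an equal number of peaks 7, 6, 4 and 4.

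The share of the peaks of each list that lay in member windows sets the members against the length of the list, but over the 4 libraries it rose in the same order as that length. It was 0.381% in WT rep 1 (0.275 to 0.527), 0.512% in WT rep 2 (0.401 to 0.655), 0.334% in miR-187 rep 1 (0.226 to 0.492) and 0.270% in miR-187 rep 2 (0.105 to 0.691). The WT shares were the higher ones, with intervals that overlap those of miR-187. The means were 0.447 ± 0.0929% in WT and 0.302 ± 0.0451% with miR-187 (SD, n = 2 each), which differ by -0.145 percentage points (exact permutation p = 0.333). Without WT rep 2 the difference was -0.0793, and without miR-187 rep 2 it was -0.113. With equal numbers of peaks the shares rested on 7, 6, 5 and 4 peaks and differed by -0.135.

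By gene, 6 members had window peaks in rep 1 and rep 2 of WT but not of miR-187, namely Elk3, Lmo2, Nrp1, Ephb4, Pgf and Plvap. This pattern was found in 9.38% of all genes, and 4.28 genes of like length would show it among 42. By region, 13 of the 96 (13.5%) were shared by the WT lists, against 20.3% of all regions. Of these 13, 7 were missing from both miR-187 lists. Among all 4253 regions that the WT lists share, 42.4% were missing in this way. The 7 were the start peaks of Ephb4 and Cd34, the intragenic peak of Ets1, the peak before Tal1 and the distant peaks of Eng, Pgf and Plvap. In Elk3, Lmo2 and Nrp1 the WT lists shared no region. Without WT rep 1, WT-only regions numbered 49, and without WT rep 2 they numbered 28. They numbered 12 without miR-187 rep 1 and 7 without miR-187 rep 2. The single miR-187-only region of the 96 was that of Esam, and 16 regions had a peak in both groups. Among all 20919 regions 33 were miR-187-only and 4941 had a peak in both groups. Without miR-187 rep 2 the miR-187-only regions numbered 10 and those with a peak in both groups 15. Without miR-187 rep 1 these numbers were 1 and 3, and without WT rep 2 they were 2 and 8.

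**Figure D5:**
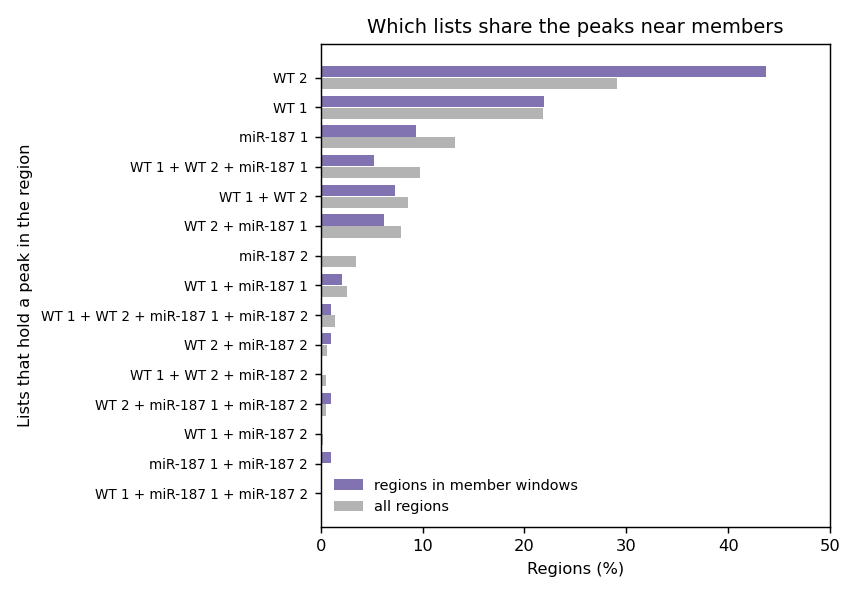
Share of merged regions by the lists that hold a peak in them, for the 96 regions in member windows (purple) and all 20919 regions (grey). A peak in WT rep 2 alone makes up 43.8% of member regions and 29.1% of all regions, and no member region has a peak in miR-187 rep 2 alone.

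Most regions near the members had a peak in 1 list only, and this differed by list. Of the 96 regions 72 (75%) were in 1 list, against 67.6% of all regions. WT rep 2 alone held 42 of them, WT rep 1 alone 21, miR-187 rep 1 alone 9 and miR-187 rep 2 alone 0. In that order these are 43.8%, 21.9%, 9.38% and 0% of member regions, beside 29.1%, 21.8%, 13.2% and 3.52% of all regions. Of the 63 member peaks in WT rep 2, 20.6% (12.5 to 32.2) overlapped a peak of WT rep 1, against 35.0% of all peaks in that list. An equal number, in part other peaks, overlapped a peak of miR-187 rep 1, against 33.7% of all. In the other direction 52% (33.5 to 70.0) of the 25 member peaks in miR-187 rep 1 were also in WT rep 2, near the 55.3% of all its peaks. Of the 4 member peaks in miR-187 rep 2, 3 overlapped a peak of WT rep 2 and 3 a peak of miR-187 rep 1. Each is 75% (30.1 to 95.4), against 43.6% and 31.1% of all peaks of miR-187 rep 2. By place, 7 of 16 regions at a boundary, 6 of 38 inside a gene and 11 of 42 outside were in more than 1 list. These counts by place describe the members alone and were not compared with all regions at the same positions.

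Other genes of the same pathways were read in the same way. Of 41 further vascular genes, among them Flt1, Tie1, Cdh5, Klf2 and Sox18, 22, 28, 21 and 6 had a window peak in WT rep 1, WT rep 2, miR-187 rep 1 and miR-187 rep 2. These are 53.7%, 68.3%, 51.2% and 14.6%, beside 45.2%, 53.8%, 40.3% and 8.83% of all genes. A boundary peak was found in 7, 15, 8 and 1 of them, beside 21.0%, 29.9%, 19.4% and 3.07% of all genes. Cdh5, the VE-cadherin gene, had a boundary peak in both WT lists and in miR-187 rep 2. Tie1 had one in WT rep 2 alone, and Klf2, Hhex, Ephb3, Jam2 and Etv6 in both WT lists and in miR-187 rep 1.

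Marker genes of other heart cells were counted beside them. A window peak was found in 8, 9, 11 and 0 of 18 cardiomyocyte genes, 4, 5, 3 and 0 of 8 fibroblast genes, 3, 2, 0 and 2 of 8 mural genes, 3, 2, 2 and 0 of 6 immune genes and in none of 6 erythroid genes, in the order of libraries used above. Of 11 endothelial markers 6, 7, 7 and 3 had one, and of 15 housekeeping genes 10, 14, 8 and 2. The endothelial markers are themselves members, apart from Cdh5 and Tie1, which are among the further vascular genes above. Their counts are therefore not independent of those already given. Among the endothelial markers Cldn5 and Emcn had no peak in any list. The cardiomyocyte shares of 44.4%, 50%, 61.1% and 0% stood beside 45.2%, 53.8%, 40.3% and 8.83% of all genes, and the endothelial ones were 54.5%, 63.6%, 63.6% and 27.3%. These lists were not tested against each other, and the part of other cells in the members' counts was not tested.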

How the data were processed

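ATAC-seq peak lists of 4 mouse heart libraries (2 WT, 2 miR-187) were read in build mm10 (GRCm38). The submitters' processing notes name Bowtie2 2.2.6, SAMtools 1.10, deepTools 3.3.2, MACS2 2.2.7.1 and HOMER 4.11. In each deposited list the authors give per peak a score, a −log10 p, a −log10 q and, for the summit, a fold enrichment. Reads were not used here. The −log10 q served to rank or filter within a list, and counts after the filter were also compared between the groups. Local backgrounds and reads at the summit were solved from fold and p with 200 bp fragments, which was tested on simulated data, and the lowest background gave the depth.

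Genes came from a RefSeq table (GRCm38.p6), which gives boundaries but no strand. The start was planned as the promoter, but only 26 of 42 members had one in the promoter table, so peaks within 1 kb of either boundary were counted and starts given apart. Peaks overlapping by at least 1 bp were merged. In counts over all genes a peak counts for each gene whose window holds it. For the groups a 2-sided exact permutation test over 6 assignments was used (smallest p 0.333). Members and lists were chosen with earlier results of these data known. Named with values were members with a peak in at least 3 lists, members with a peak in both lists of 1 group and in neither of the other, those with most regions, the strongest per list, Tek and Pecam1, and values of other members were added after they were seen. Python 3.11.15, numpy 2.4.6, pandas 2.3.3 and scipy 1.17.1 were used.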

Additional observations from a re-analysis of the deposited data

How the results depend on the processing

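The 4 group differences kept their direction (lower with miR-187) in every alternative and never passed the threshold, which 2 libraries a group cannot reach. Leaving out each library in turn gave -24.5 to -8.5 members with a window peak, -8.5 to -3.5 with a boundary peak, -48.5 to -21.5 peaks and -0.211 to -0.0793 percentage points of all peaks. Boundary counts differed by -3 with a −log10 q of at least 5, -1 with equal numbers of peaks, -1.57 after thinning and -10 within 3 kb, window peaks by -12.5, -2, -6.5 and, within 5 kb, -24, and the share by -0.28 at that q and -0.0927 within 5 kb. The q filter, equal numbers, thinning and the 5 kb window hold fewer peaks by construction, and the 3 kb boundary holds more. The cause was not tested otherwise. With a replicate block the differences were -16.5, -6, -35 and -0.145 (exact sign-flip p = 0.5, the smallest possible). The replicate numbers are not shown to pair libraries, since their deviations from the group mean had a correlation of -0.0255 over all regions. WT-only regions fell from 7 to 3 with a −log10 q of at least 5, to 1 with equal numbers of peaks and to 4 with a 5 kb window, and ran from 7 to 49 when a library was left out. The miR-187-only region was lost (0) at a −log10 q of at least 5, with equal numbers of peaks and with summits within 250 bp, and numbered 1 to 10 when a library was left out. Regions with a peak in both groups fell from 16 to 4 at that q, 1 with equal numbers and 10 in the 5 kb window, and ran from 3 to 15 when a library was left out. After thinning to the lowest inferred background density, which is not the sequencing depth itself, the lists still differed, with 5481, 2287, 4268 and 1483 peaks expected (WT first, replicate 1 before replicate 2).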
